A study of Mus musculus with 9 samples.

Results

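Transcripts of 10 genes that mark macrophages (Lyz2, Cd68, Csf1r, Mrc1, Marco, Chil3, Trem2, Gpnmb, C1qa, and Cd74) were followed in lung fibroblasts sorted by FACS. They were chosen by gene symbol, as macrophage genes left in a sort that excludes CD45+ cells, and all 10 were found among the 43346 genes of the count table. The cells came from Col1a1-GFP mice on an FVB background, in which the collagen I promoter drives GFP, and were sorted as GFP+, CD45-, CD31-, and EpCAM- to remove hematopoietic, endothelial, and epithelial cells. All mice were male and aged, given as 18 months in the protocol and 72 weeks in the sample labels. They received 1 intratracheal dose of saline (aged sham, n = 4 mice) or bleomycin (aged bleo, n = 5 mice), and lungs were taken on day 30. Young mice were not analysed here. The comparison asks which of these transcripts differed between the sorts of injured and uninjured aged lungs.

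Macrophages are phagocytes of the innate immune system. In the lung, alveolar macrophages lie in the airspaces, interstitial macrophages lie in the tissue, and monocytes from the blood give rise to new macrophages after injury. Several of these cells are known to appear in fibrotic lesions, where they take up debris and exchange growth factors with fibroblasts. Macrophages carry CD45 on their surface, so the gate of the sort was set to leave them out. In RNA from a sorted population, fewer cells of a type and less RNA per cell cannot be told apart.

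The counts summed to 49921946 to 62370512 per aged sham library and to 53833507 to 68260600 per aged bleo library. The 10 transcripts took 0.0382% to 0.0499% of the counts in aged sham and 0.0698% to 0.225% in aged bleo. In CPM (counts scaled to library size, TMM-normalized), their summed level was 385 to 502.8 CPM in aged sham against 712 to 2094.6 CPM in aged bleo. The groups did not overlap in this sum, but Lyz2 alone made up 373 of the 712 CPM in aged bleo 1. Without Lyz2, the sum of aged bleo 1 lay within the range of aged sham. Aged bleo 4 held the highest level of all 9 libraries for 9 of the 10 transcripts, Gpnmb being the exception. Within aged sham, the fourth library was highest for 6 of the 10. The sort selected for Col1a1, the gene whose promoter drives the reporter, so its level is no independent check of the fibroblast label. Col1a1 was at 265 FPKM (fragments scaled to gene length and library size) in aged sham and 1371 FPKM in aged bleo. Lyz2, the most abundant of the macrophage transcripts, was at 38.8 and 215 FPKM. The transcript of CD45 itself, Ptprc, was present in every library, and the values of the leukocyte genes are given after those of the macrophage genes.

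Of the 10 transcripts, 5 were higher in aged bleo (Lyz2, Chil3, Cd68, Trem2, and Mrc1), and the remaining 5 did not pass the test. A gene was called when its FDR, the Benjamini-Hochberg adjusted p of edgeR's quasi-likelihood test over 16877 genes, was under 0.10 and its fold change was over 1.5. By the same thresholds, 23.8% of all tested genes were called, with 12.3% higher in aged bleo and 11.5% lower. The median log2 fold change of the 10 was 1.29, and that of all tested genes was 0.0064. The 10 were chosen with earlier results of these data known, so these figures describe the list and do not test it. In 4 of the 10, every aged bleo library was above every aged sham library, as in 16.1% of all tested genes. Without aged bleo 4, the same 5 transcripts passed and the median was 0.86, with 11.2% of all tested genes called higher.

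**Figure D1:**
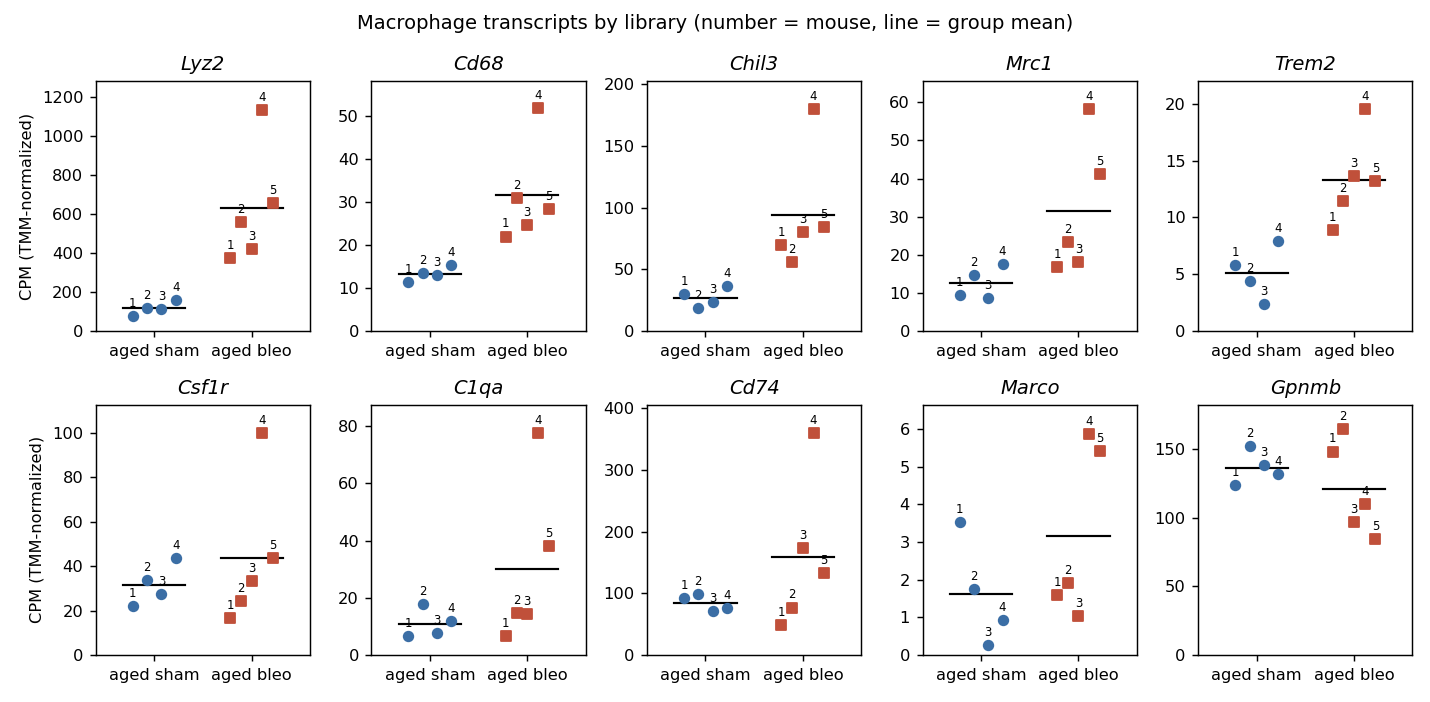
Levels of the 10 macrophage transcripts in CPM (y axes, linear from 0) in each aged sham and aged bleo library (x axis). Each number is 1 mouse and each line a group mean. Aged bleo 4 is the highest point in 9 of the 10 panels, and the groups are apart for Lyz2, Cd68, Chil3, and Trem2.

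Lyz2 encodes lysozyme M, an enzyme that cleaves bacterial cell walls and is stored and secreted by macrophages and other myeloid cells. The gene (ENSMUSG00000069516) lies on chromosome 10 from 117277334 to 117282274 of GRCm38, on the minus strand. It was at 79.99, 116, 112, and 162 CPM in aged sham 1 to 4 and at 373, 557, 419.7, 1132, and 657 CPM in aged bleo 1 to 5. Even the lowest aged bleo library was above the highest aged sham library. Means ± SD were 117 ± 33.6 CPM in aged sham (n = 4) and 628 ± 303 CPM in aged bleo (n = 5), for a log2 fold change of 2.42 (SE 0.36, FDR = 0.00142). It was 2.09 without aged bleo 4 (SE 0.25, FDR = 6.89e-04). Lyz1, a nearly identical neighbor of Lyz2 that is best known from the Paneth cells of the gut, could exchange reads with it. Lyz1 held 0.948 to 3.63 counts per 100 Lyz2 counts in aged sham and 1.17 to 2.29 in aged bleo, and it was itself higher in aged bleo, with a log2 fold change of 2.20 (SE 0.43, FDR = 0.00525).

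Chil3 (also known as Ym1) encodes a chitinase-like protein that binds sugars without cleaving chitin and is made by alveolar and alternatively activated macrophages of the mouse. It lies on chromosome 3 from 106147554 to 106167564 on the minus strand (ENSMUSG00000040809). It was at 30.0, 18.8, 23.6, and 36.6 CPM in aged sham and at 69.6, 56.2, 80.1, 179, and 84.5 CPM in aged bleo. The groups did not overlap, and aged bleo 4 stood well above the other 4 aged bleo libraries. Chil3 had a log2 fold change of 1.79 (SE 0.35, FDR = 0.00551), from a mean of 27.2 ± 7.74 CPM (SD, n = 4) to 93.9 ± 49.0 CPM (SD, n = 5). Leaving out aged bleo 4 gave 1.40 (SE 0.21, FDR = 0.00198). Chil4 and Chil1 are relatives that share sequence with Chil3. Of these, Chil4 was too low to be tested and held 0.0912 to 0.676 counts per 100 Chil3 counts over the 9 libraries. Chil1 was higher in aged bleo, at 36.9 CPM against 15.1 CPM, with a log2 fold change of 1.29 (SE 0.34, FDR = 0.0183).

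Cd68 encodes a heavily glycosylated protein of late endosomes and lysosomes that is widely used to stain macrophages, and it lies on chromosome 11 from 69664213 to 69666153 on the minus strand (ENSMUSG00000018774). It was at 11.4, 13.4, 13.0, and 15.4 CPM in aged sham and at 21.97, 30.8, 24.7, 51.7, and 28.3 CPM in aged bleo. Aged sham varied little, and no aged bleo library came down to its range. The log2 fold change was 1.24 (SE 0.24, FDR = 0.00502), from 13.3 ± 1.63 CPM (SD, n = 4) to 31.5 ± 11.8 CPM (SD, n = 5), and 0.98 (SE 0.13, FDR = 0.00100) without aged bleo 4. Cd68 is a lysosomal protein, and 13 other lysosomal genes were set beside it, of which most encode proteins of the lysosome and the others, Tfeb and Mitf, are transcription factors of lysosomal genes. Of these, 2 were higher and 1 was lower in aged bleo, against 12.3% and 11.5% of all tested genes. The 13 genes had a median log2 fold change of -0.063 (1 higher and 1 lower without aged bleo 4). Their summed level was 5720.1 to 6265 CPM in aged sham and 5947 to 6711 CPM in aged bleo, so that the ranges overlapped.

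Trem2 and Mrc1 encode surface receptors. TREM2 binds lipids and lipoproteins and signals through the adaptor TYROBP, and MRC1 is the mannose receptor (CD206), which takes up glycoproteins with terminal mannose. Trem2 (ENSMUSG00000023992, chromosome 17 from 48346401 to 48354147, plus strand) was at 5.80, 4.38, 2.38, and 7.97 CPM in aged sham and at 8.89, 11.4, 13.6, 19.5, and 13.2 CPM in aged bleo. The lowest aged bleo library lay just above the highest aged sham library, and the groups did not overlap. Trem2 had a log2 fold change of 1.38 (SE 0.34, FDR = 0.0141), and 1.19 (SE 0.32, FDR = 0.0226) without aged bleo 4. Mrc1 (ENSMUSG00000026712, chromosome 2 from 14229392 to 14332057, plus strand) was at 9.56, 14.6, 8.59, and 17.5 CPM in aged sham and at 16.8, 23.5, 18.0, 58.2, and 41.3 CPM in aged bleo. Aged bleo 1 lay below the highest aged sham library, so the groups overlapped by that library, and aged bleo 4 and 5 were well above the other 7 libraries. The log2 fold change of Mrc1 was 1.33 (SE 0.41, FDR = 0.0326), and 0.98 (SE 0.33, FDR = 0.0488) without aged bleo 4.

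The partners through which TREM2 and CSF1R signal gave no call. None of the 6 genes of this list passed with edgeR, DESeq2, or limma, and none had an unadjusted p under 0.05. Tyrobp, the adaptor of TREM2, was at 10.1, 15.2, 23.6, and 48.8 CPM in aged sham and at 14.0, 14.5, 18.6, 67.8, and 18.9 CPM in aged bleo. Its 2 highest libraries were aged bleo 4 and aged sham 4, and its log2 fold change was 0.14 (SE 0.59, FDR = 0.880). Without aged bleo 4, 1 of the 6 genes was lower in aged bleo and the median of the list went from 0.22 to -0.51 on the log2 scale. Of all tested genes, 1956 of 16730 were lower without aged bleo 4.

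**Figure D2:**
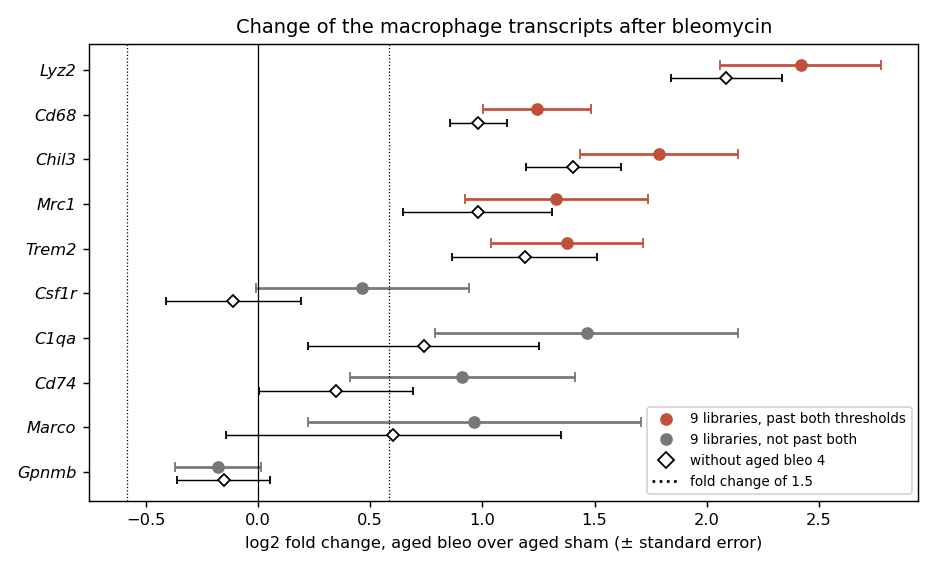
Log2 fold change of each macrophage transcript, aged bleo against aged sham (x axis), with all 9 libraries and without aged bleo 4. Points are edgeR estimates and bars are 1 SE. The estimates of Lyz2, Chil3, Trem2, Mrc1, and Cd68 stay above 0 by over 2 SE with and without aged bleo 4, and Csf1r lies at 0.46 with it and at -0.11 without it.

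Promoters of the 4 transcripts whose groups did not overlap are shown with that of Gpnmb, whose groups did. PU.1, the ETS-family factor needed for macrophage development, is known to recognize purine-rich sites with a GGAA core, and the letters GAGGAA and AGGAAG were searched on both strands in RefSeq promoter windows of GRCm38.p6, from 250 bases before to 50 after the start of the gene. The 2 motifs overlap each other where GAGGAAG occurs. Of the 10 genes, 7 had an entry (not C1qa, Csf1r, and Cd74). Matches, on either strand, are in capitals and the sequences read 5′ to 3′ on the strand of the gene.
Lyz2 (chr10:117282223-117282522, minus strand): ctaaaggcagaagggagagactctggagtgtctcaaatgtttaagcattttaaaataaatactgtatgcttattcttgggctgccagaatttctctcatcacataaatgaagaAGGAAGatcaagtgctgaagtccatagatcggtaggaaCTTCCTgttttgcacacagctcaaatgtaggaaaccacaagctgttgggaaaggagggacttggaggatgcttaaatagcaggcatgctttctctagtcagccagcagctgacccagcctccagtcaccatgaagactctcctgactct
Cd68 (chr11:69666121-69666420, minus strand): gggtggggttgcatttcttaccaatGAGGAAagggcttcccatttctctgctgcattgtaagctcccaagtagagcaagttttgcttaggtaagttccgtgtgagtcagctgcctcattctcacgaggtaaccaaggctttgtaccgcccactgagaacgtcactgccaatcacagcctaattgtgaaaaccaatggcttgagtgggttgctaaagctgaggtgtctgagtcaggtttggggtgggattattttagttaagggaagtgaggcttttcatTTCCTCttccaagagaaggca
Chil3 (chr3:106167515-106167814, minus strand): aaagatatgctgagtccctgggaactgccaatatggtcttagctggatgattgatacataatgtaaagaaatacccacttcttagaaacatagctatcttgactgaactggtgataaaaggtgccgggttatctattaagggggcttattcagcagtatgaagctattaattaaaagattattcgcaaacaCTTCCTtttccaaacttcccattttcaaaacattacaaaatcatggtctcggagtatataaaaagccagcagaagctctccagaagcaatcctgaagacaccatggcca
Trem2 (chr17:48346151-48346450, plus strand): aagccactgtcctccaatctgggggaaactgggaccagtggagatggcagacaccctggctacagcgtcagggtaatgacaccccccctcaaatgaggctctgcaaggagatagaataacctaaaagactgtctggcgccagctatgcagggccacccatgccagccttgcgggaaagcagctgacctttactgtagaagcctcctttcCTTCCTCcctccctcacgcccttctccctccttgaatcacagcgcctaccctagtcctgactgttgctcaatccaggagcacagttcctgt
Gpnmb (chr6:49036268-49036567, plus strand): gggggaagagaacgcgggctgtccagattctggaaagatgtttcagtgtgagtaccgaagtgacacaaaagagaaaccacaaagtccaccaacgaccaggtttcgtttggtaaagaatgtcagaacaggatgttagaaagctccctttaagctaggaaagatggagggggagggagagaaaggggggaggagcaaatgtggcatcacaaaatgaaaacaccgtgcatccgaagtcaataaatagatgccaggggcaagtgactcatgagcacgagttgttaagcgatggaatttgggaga

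The Lyz2 window held AGGAAG-type letters starting 137 and 99 bases before the start of the gene. The Cd68 window held GAGGAA-type letters starting 225 bases before it and 29 bases after it. Chil3 had 1 match, 59 bases before the start, and in Trem2 both motifs overlapped at 41 bases before the start. The Gpnmb window held neither. Mrc1 and Marco, whose groups overlapped as those of Gpnmb did, held 4 and 2 sites, with overlapping matches merged (sequences not shown). A match was thus not limited to the transcripts whose groups were apart. With these genes, 6 of the 7 windows held at least 1 match, and so did 45.9% of 32544 promoters (28.1% for GAGGAA and 35.1% for AGGAAG), so that such letters are common in windows of this length. A match describes the letters of the window and is not a measured binding site. Spi1, the gene of PU.1, was at 8.63 to 34.8 CPM in aged sham and 8.96 to 45.4 CPM in aged bleo. Spi1 was not called (log2 fold change -0.10, SE 0.59, FDR = 0.910), and without aged bleo 4 it was lower in aged bleo (-0.89, SE 0.37, FDR = 0.0933).

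Csf1r encodes the receptor for CSF1 and IL-34, on which most macrophages depend for survival. The gene (ENSMUSG00000024621, chromosome 18 from 61105572 to 61132149, plus strand) was at 22, 33.7, 27.4, and 43.6 CPM in aged sham and at 16.7, 24.4, 33.3, 100.2, and 43.6 CPM in aged bleo. Apart from aged bleo 4, the aged bleo libraries lay within or below the range of aged sham, or at its upper edge. The difference did not pass the test (log2 fold change 0.46, SE 0.48, FDR = 0.475), and without aged bleo 4 the estimate was -0.11 (SE 0.30, FDR = 0.803). In the GENCODE M21 gene models, Csf1r shares 873 exonic bases with Hmgxb3, which lies on the opposite strand. Those models give Csf1r 5774 exonic bases, against a length of 4885 in the deposited counts. Whether the counted gene holds the shared bases is therefore not known. The library kit does not keep strand, so reads of any shared bases cannot be assigned to either gene from the counts.

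Of the 2 ligands of CSF1R, Il34 was higher in aged bleo. Il34 was at 16.0, 8.23, 5.38, and 7.91 CPM in aged sham and at 30.1, 26.1, 29.5, 23.0, and 21.7 CPM in aged bleo, and every aged bleo library was above every aged sham library. Its log2 fold change was 1.47 (SE 0.28, FDR = 0.00493). Csf1 was at 334, 296, 318, and 328 CPM in aged sham and at 213, 266, 267, 165, and 186 CPM in aged bleo, so that every aged bleo library lay below every aged sham library. With a log2 fold change of -0.54 (SE 0.15, FDR = 0.0209), Csf1 met the FDR threshold and missed the fold threshold, and it was not called.

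C1qa encodes a chain of C1q, the recognition molecule of the classical complement pathway, which tissue macrophages make. C1qa (ENSMUSG00000036887, chromosome 4 from 136895917 to 136898803, minus strand) was at 6.53, 17.7, 7.65, and 12.0 CPM in aged sham and at 6.64, 14.7, 14.3, 77.5, and 38.1 CPM in aged bleo. Aged bleo 4 and 5 stood above all other libraries, and aged bleo 1 to 3 lay within the range of aged sham. The log2 fold change was 1.46 (SE 0.68, FDR = 0.121) and thus not called, and it was 0.74 (SE 0.51, FDR = 0.293) without aged bleo 4. It was called by DESeq2 (FDR = 0.0909) and without aged bleo 1 (log2 fold change 1.72, FDR = 0.0570) or aged bleo 2 (1.64, FDR = 0.0925). The genes of the other C1q chains lay near it in value. C1qb had a log2 fold change of 1.52 (SE 0.66, FDR = 0.1001) and C1qc one of 1.34 (SE 0.67, FDR = 0.148), and neither was called.

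Cd74 encodes the invariant chain, which escorts MHC class II molecules to the compartment where they bind peptides, and it is expressed by macrophages, dendritic cells, and B cells alike. Cd74 (ENSMUSG00000024610, chromosome 18 from 60803848 to 60812646, plus strand) was at 92.6, 98.2, 71.0, and 75.5 CPM in aged sham and at 48.9, 76.9, 173, 360.4, and 134 CPM in aged bleo. The aged bleo libraries lay on both sides of the narrow range of aged sham, with aged bleo 1 below it, aged bleo 2 within it, and aged bleo 3, 4, and 5 above it. The log2 fold change was 0.91 (SE 0.50, FDR = 0.184), and 0.35 (SE 0.34, FDR = 0.461) without aged bleo 4. Without aged bleo 1, the lowest library, Cd74 was called, with a log2 fold change of 1.14 (FDR = 0.0671). In the GENCODE M21 gene models, Cd74 shares 12 exonic bases with the microRNA gene Mir5107. Those models give Cd74 1679 exonic bases, against a length of 1410 in the deposited counts, so the overlap in the counted gene is not known.

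The 7 MHC class II genes that accompany Cd74 had a median log2 fold change of 0.71 (0.31 without aged bleo 4), and 1 of them, H2-DMb1, was called with and without aged bleo 4 (log2 fold change 1.21, SE 0.41, FDR = 0.0468). Of all tested genes, 12.3% were called higher. Aged bleo 4 was highest of the 9 libraries for all 7, and their summed level was 69.4 to 111 CPM in aged sham and 61.4 to 326 CPM in aged bleo. Cd74 and H2-Aa, the gene of a class II alpha chain, kept nearly 1 ratio throughout. There were 192 to 213 Cd74 counts per 100 H2-Aa counts in aged sham and 192 to 212 in aged bleo, while Cd74 itself ranged from 48.9 to 360.4 CPM.

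Marco encodes a scavenger receptor of alveolar macrophages, and Gpnmb encodes a lysosomal glycoprotein that macrophages of injured and lipid-laden tissue express and that melanocytes and osteoblasts also make. Marco (ENSMUSG00000026390, chromosome 1 from 120474538 to 120505024, minus strand) was the lowest of the 10, at 3.54, 1.75, 0.253, and 0.928 CPM in aged sham and at 1.58, 1.92, 1.03, 5.87, and 5.401 CPM in aged bleo. Aged bleo 4 and 5 were above all other libraries and the rest of the groups overlapped. Marco had a log2 fold change of 0.96 (SE 0.74, FDR = 0.340), on counts that ran from 13 in aged sham 3 to 430 in aged bleo 4. Its estimate was 0.60 without aged bleo 4, 0.63 without aged sham 3, and 1.69 without aged sham 1, and it was called in none of these.

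Gpnmb (ENSMUSG00000029816, chromosome 6 from 49036518 to 49058182, plus strand) was at 124, 152, 138, and 132 CPM in aged sham and at 148, 165, 96.5, 109.8, and 84.1 CPM in aged bleo. It was the only one of the 10 with a negative estimate, and aged bleo 4 lay below all 4 aged sham libraries. The log2 fold change was -0.18 (SE 0.19, FDR = 0.501), and its values over all alternatives were between -0.31 (without aged bleo 2) and -0.070 (without aged bleo 5).

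Levels of different genes can be compared only per length, in FPKM. In aged sham, the order was Lyz2 (38.8 ± 10.6 FPKM, SD, n = 4), Cd74 (25.1 ± 4.09), Gpnmb (15.1 ± 1.503), Chil3 (6.98 ± 1.87), Cd68 (4.44 ± 0.5005), C1qa (4.43 ± 2.08), Csf1r (2.71 ± 0.762), Mrc1 (0.825 ± 0.269), Trem2 (0.433 ± 0.192), and Marco (0.352 ± 0.309). Cd68 and C1qa, C1qa and Csf1r, and Trem2 and Marco did not differ beyond their spread (the larger SD of the neighbors). In aged bleo, Lyz2 was at 215 ± 111 FPKM (SD, n = 5) and Cd74 at 48.9 ± 39.5 FPKM, and Chil3, at 25.01 ± 13.9 FPKM, came before Gpnmb, at 13.6 ± 3.78 FPKM. C1qa (12.7 ± 12.6 FPKM) and Cd68 (10.8 ± 4.403 FPKM) exchanged places, and Csf1r (3.90 ± 3.10 FPKM), Mrc1 (2.15 ± 1.28 FPKM), Trem2 (1.16 ± 0.373 FPKM), and Marco (0.716 ± 0.533 FPKM) kept theirs. Only Lyz2 and Cd74, and Cd68 and Csf1r, differed by more than the larger SD of the neighbors in the aged bleo order.

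The proportions among the transcripts, within each library, were set against Lyz2 after the values above had been seen, and they are a description without a test. For every 100 Lyz2 counts there were 24.5 to 28.9 Csf1r counts in aged sham and 4.39 to 8.85 in aged bleo, and the ranges were far apart. Cd68 held 9.52 to 14.3 counts per 100 Lyz2 counts in aged sham and 4.30 to 5.89 in aged bleo, and Cd74 46.7 to 116 and 13.1 to 41.2. Gpnmb was at 81.5 to 155 and 9.70 to 39.7, and Mrc1 at 7.69 to 12.6 and 4.21 to 6.28. The ranges overlapped for the remaining 3, which were Chil3 (16.1 to 37.5 in aged sham and 10.1 to 19.1 in aged bleo), Trem2 (2.13 to 7.25 and 1.72 to 3.25), and Marco (0.227 to 4.42 and 0.245 to 0.822). C1qa was at 6.850 to 15.2 and 1.78 to 6.849 counts per 100 Lyz2 counts, its ranges nearly meeting at aged sham 3 and aged bleo 4. These ratios share the Lyz2 count, so they do not vary independently. Lyz2 had the largest log2 fold change of the 10 (2.42), so dividing by it set the fall of the ratios in aged bleo in advance. A separated range is therefore no sign that the other gene changed.

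**Figure D3:**
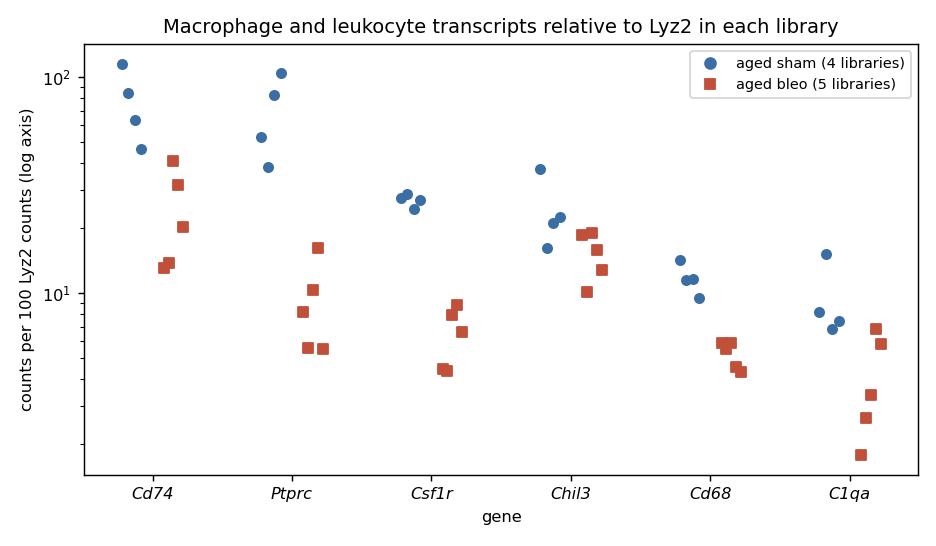
Counts of macrophage and leukocyte transcripts per 100 Lyz2 counts (log axis) in each of the 4 aged sham and 5 aged bleo libraries. Each point is 1 library. The ranges of Csf1r (24.5 to 28.9 against 4.39 to 8.85) and Ptprc (38.4 to 104 against 5.53 to 16.2) do not overlap, while those of Chil3 do. Lyz2, by which the counts are divided, had the largest log2 fold change of the macrophage transcripts.

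For each transcript, the tested gene with the most similar profile was taken as the one with the smallest root mean square difference of centered log2 CPM over the 9 libraries. C1qa was nearest to C1qb (0.089 on the log2 scale), and Cd74 to H2-Aa (0.058). For the other 8, the nearest genes were Siglec1 for Lyz2 (0.24), Lgals3 for Cd68 (0.13), Fermt3 for Csf1r (0.19), Tbxas1 for Mrc1 (0.20), Prdm1 for Chil3 (0.22), Slc6a12 for Trem2 (0.22), 1700029I15Rik for Gpnmb (0.12), and Aunip for Marco (0.53). The distance measures likeness over these libraries only, in which treatment and the height of aged bleo 4 enter every profile.

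A further 5 lists of macrophage and monocyte genes, 57 of whose 58 genes could be tested, held 22 genes that were higher and 6 that were lower in aged bleo, with a median log2 fold change of 0.60. When aged bleo 4 was left out, the numbers were 20 and 11, and the median was 0.28. Of all tested genes, 12.3% were higher and 11.5% lower, and 1876 and 1956 of 16730 without aged bleo 4. The 6 lower genes lie near their share, and the counts of each list below are to be read beside these shares. The lists are described in turn. Genes expressed by macrophages of all kinds numbered 14, of which 7 were higher and 1 was lower (7 higher and 2 lower without aged bleo 4), with a median of 0.69 (0.46 without it). Those with the largest change were Msr1, a scavenger receptor (log2 fold change 3.17, SE 0.53, FDR = 0.00260), Ctss, the protease cathepsin S (2.98, SE 0.39, FDR = 7.76e-04), and Siglec1, the sialic acid receptor CD169 (2.32, SE 0.37, FDR = 0.00224). Siglec1 was at 1.68 to 2.80 CPM in aged sham and 5.77 to 18.1 CPM in aged bleo. Adgre1, the gene of F4/80, listed under its older symbol Emr1, passed as well (1.61, SE 0.53, FDR = 0.0418). Cd163, the scavenger receptor for hemoglobin, went the other way, with means ± SD of 2.35 ± 0.773 CPM in aged sham (n = 4) and 0.823 ± 0.597 CPM in aged bleo (n = 5), and with a log2 fold change of -1.50 (SE 0.56, FDR = 0.0634). Cd14, the co-receptor for lipopolysaccharide and the most abundant of the list, was at 90.5 to 362 CPM in aged sham and 56.3 to 439 CPM in aged bleo and was not called (-0.19, SE 0.68, FDR = 0.850).

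Of 11 alveolar macrophage genes tested, 4 were higher and 1 was lower, with a median log2 fold change of 0.92 (0.47 without aged bleo 4, with the same counts). Ear2, an eosinophil-associated ribonuclease, was at 4.60 to 10.2 CPM in aged sham and 24.1 to 49.5 CPM in aged bleo (log2 fold change 2.04, SE 0.29, FDR = 0.00116). Plet1 (2.01, SE 0.29, FDR = 0.00122) and Ear1 (1.76, SE 0.32, FDR = 0.00375) were higher as well. Another 6 were not called, with log2 fold changes of 0.97 (Car4), 0.92 (Itgax), 0.84 (Siglecf), 0.056 (Pparg), -0.35 (Fabp4), and -0.37 (Krt79). The one that was lower was Cd9, a tetraspanin that fibroblasts also make, at means ± SD of 285 ± 15.6 CPM in aged sham (n = 4) and 186 ± 27.99 CPM in aged bleo (n = 5), with a log2 fold change of -0.62 (SE 0.11, FDR = 0.00408).

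Interstitial macrophage genes were mixed, with 1 of 12 higher and 2 lower, and with 4 lower without aged bleo 4. Ms4a7, a membrane protein of macrophages, was higher (log2 fold change 2.41, SE 0.68, FDR = 0.0231), at 0.565 to 0.988 CPM in aged sham and 1.00 to 8.90 CPM in aged bleo. Cd209f, a C-type lectin, was lower (-3.42, SE 0.62, FDR = 0.00371), at 0.818 to 1.78 CPM in aged sham and at most 0.246 CPM in aged bleo, with no count in aged bleo 3, which allows up to 3 counts. Cbr2, a carbonyl reductase that is also made by airway cells, was lower too (-1.06, SE 0.24, FDR = 0.00968).

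Of 10 monocyte genes, 2 were higher and 1 was lower, with a median log2 fold change of -0.26, and without aged bleo 4 the counts were 1 and 4 and the median -0.63. Ccr2, the receptor that brings monocytes out of the marrow, was at 1.02 to 3.21 CPM in aged sham and at 0.986, 1.92, 5.70, 39.8, and 12.8 CPM in aged bleo. Its call (log2 fold change 2.51, SE 1.00, FDR = 0.0777) was lost without aged bleo 4 (1.30, FDR = 0.193). Plac8, expressed by monocytes and granulocytes, was higher (1.06, SE 0.31, FDR = 0.0282). Nr4a1, a nuclear receptor of patrolling monocytes and an early response gene of most cells including fibroblasts, was lower (-0.99, SE 0.24, FDR = 0.0121), at 1566 to 2601 CPM in aged sham and 738 to 1394 CPM in aged bleo.

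Of 10 genes that mark macrophages of fibrotic tissue, 8 were higher and 1 was lower, with a median log2 fold change of 1.29 (7 higher and none lower without aged bleo 4, median 1.10). Spp1, the matrix protein osteopontin, had means ± SD of 8.77 ± 2.53 CPM in aged sham (n = 4) and 2145 ± 1084 CPM in aged bleo (n = 5), and a log2 fold change of 7.93 (SE 0.55, FDR = 2.84e-05). In contrast to the 9 macrophage transcripts above, its highest library was aged bleo 5 at 3263 CPM. Its lowest aged bleo library was aged bleo 2 at 980.0 CPM. Mmp12, macrophage elastase, had a log2 fold change of 6.61 (SE 0.35, FDR = 1.23e-05). Arg1, arginase 1, was at 0.307 to 0.428 CPM in aged sham and at 1.12, 0.498, 0.486, 9.85, and 5.82 CPM in aged bleo (3.34, SE 0.99, FDR = 0.0278), with the same 2 high libraries as Mrc1, C1qa, and Marco. The gene that was lower, Apoe, the apolipoprotein E that fibroblasts also secrete, was at 564 to 1589 CPM in aged bleo and 1514 to 2227 CPM in aged sham (-0.70, SE 0.27, FDR = 0.0688). Spp1, Apoe, Cd63, and several others of this list are also expressed by fibroblasts, so their counts do not separate the cell types.

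**Figure D4:**
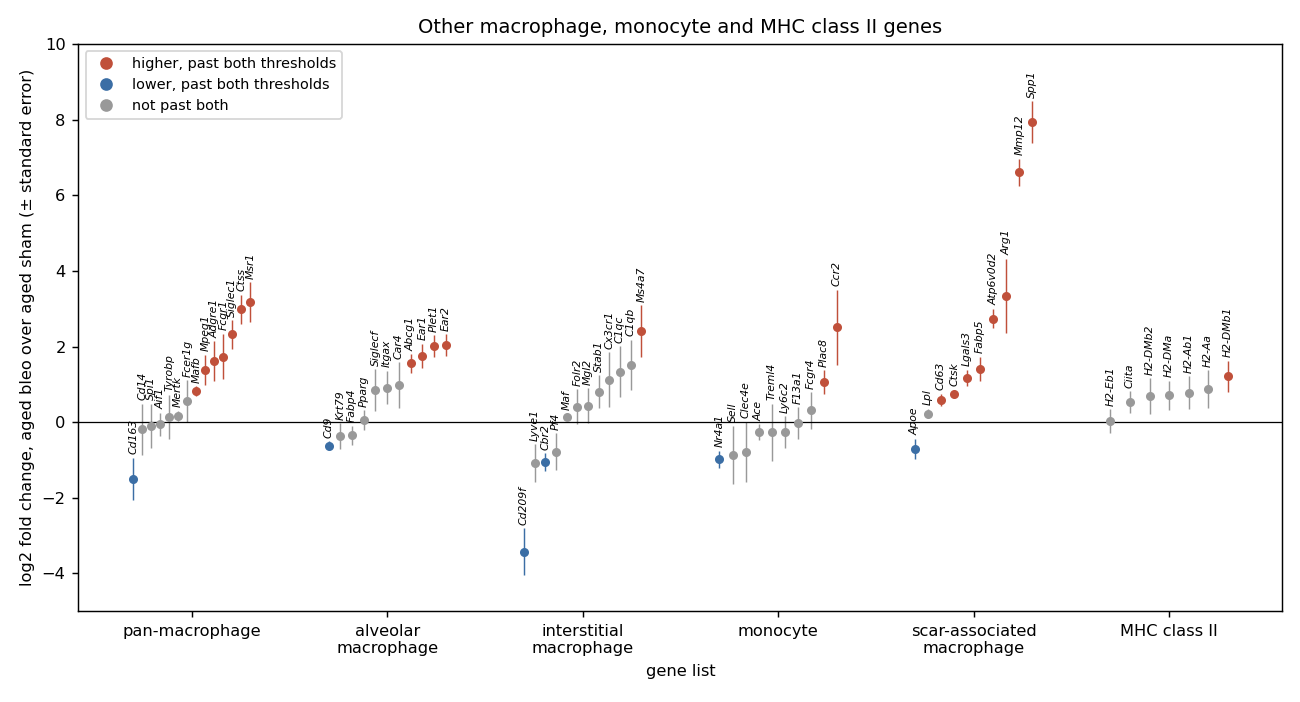
Log2 fold change (y axis, aged bleo against aged sham) of the genes in the 5 further macrophage and monocyte lists and the MHC class II list (x axis). Each point is 1 gene and its color shows whether it passed both thresholds. The genes of fibrotic-tissue macrophages reach 7.93 (Spp1), and those of the monocyte and interstitial lists lie on both sides of 0.

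The transcripts of other leukocytes were measured in the same libraries. Ptprc, which encodes CD45, was at 42.3, 44.7, 92.4, and 169 CPM in aged sham and at 30.6, 31.2, 43.6, 183, and 36.4 CPM in aged bleo. Aged sham 4 and aged bleo 4 were the highest libraries of their groups, and Ptprc was not called (log2 fold change -0.42, SE 0.64, FDR = 0.643). Without aged bleo 4, Ptprc was lower in aged bleo (-1.30, SE 0.42, FDR = 0.0414), in the 8 libraries in which Lyz2 had a log2 fold change of 2.09. Per 100 Lyz2 counts there were 38.4 to 104 Ptprc counts in aged sham and 5.53 to 16.2 in aged bleo. As for the ratios above, dividing by Lyz2 set this fall in advance, so it is no sign that Ptprc changed. The 8 genes shared by all leukocytes, Ptprc among them, had a summed level of 156 to 595 CPM in aged sham and 151 to 815 CPM in aged bleo. Of the 8, 1 was higher in aged bleo and none was lower, and without aged bleo 4 none was higher and 3 were lower.

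The 8 neutrophil genes summed to 247 to 1298 CPM in aged sham and to 135 to 1187 CPM in aged bleo. None was called with edgeR or limma, 1 was with DESeq2, and 1 had an unadjusted p under 0.05. When aged bleo 4 was left out, 7 of the 8 were lower in aged bleo, with a median log2 fold change of -1.75. Of 6 B cell genes, which summed to 84.0 to 346 CPM in aged sham and 23.7 to 235 CPM in aged bleo, 4 were lower. T and NK cell genes (3.76 to 8.25 CPM in sum in aged sham, 1.43 to 27.2 CPM in aged bleo) had 1 of 5 tested genes higher, and dendritic cell genes (16.9 to 29.0 CPM and 20.2 to 28.2 CPM) 1 of 4. No gene of any of these lists was at 0 in all libraries of a group. The part of other leukocytes in the levels of the macrophage transcripts was not tested.

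Among nonhematopoietic genes, Pecam1 (CD31) and Epcam, the other proteins of the gate, were not called, at 6.12 and 0.593 CPM in aged sham and 4.35 and 0.668 CPM in aged bleo. Of these, Pecam1 was lower without aged bleo 4 (log2 fold change -0.68, FDR = 0.0304). Endothelial genes summed to 164 to 202 CPM in aged sham and 26.6 to 70.9 CPM in aged bleo, with 1 of 6 higher and 1 lower (none higher and 3 lower without aged bleo 4). Epithelial genes summed to 13.1 to 111 CPM and 16.3 to 60.6 CPM, with 1 of 7 lower. Of 8 genes of fibroblast identity, 3 were higher and 3 were lower, and their sum was 20447 to 23340.3 CPM in aged sham and 34127 to 48492 CPM in aged bleo.

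**Figure D5:**
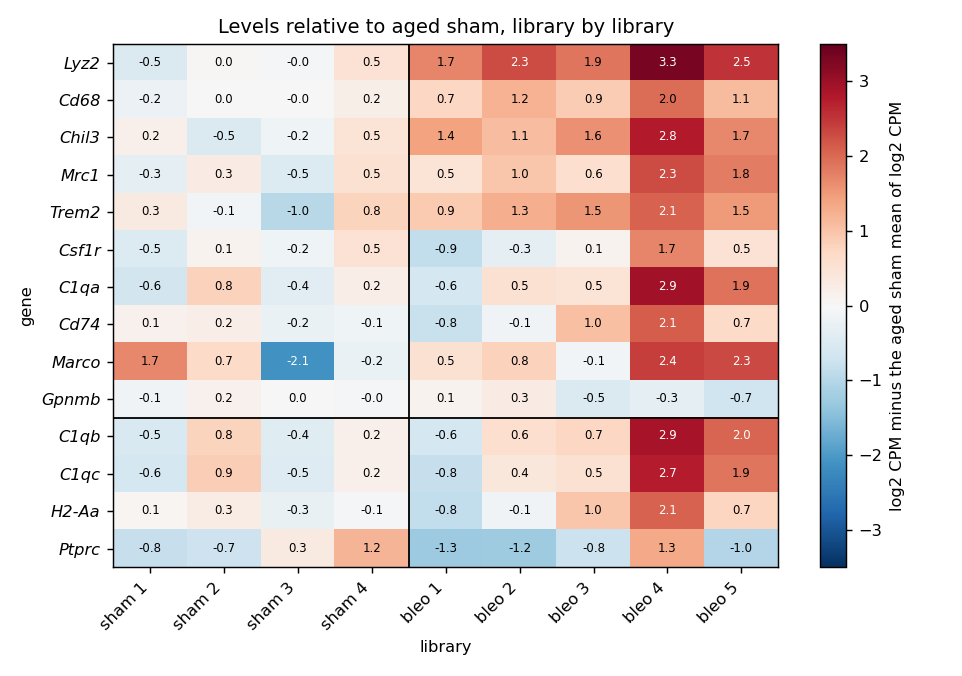
Log2 CPM of each gene (rows) in each library (columns), minus the mean log2 CPM of the gene in aged sham, with color as the difference. The column of aged bleo 4 is high for the macrophage transcripts other than Gpnmb and for Ptprc, and the columns of aged bleo 1 to 3 are high for Lyz2, Chil3, and Cd68 but not for Csf1r.

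The aged bleo libraries differed from each other in which transcripts were above aged sham. In aged bleo 1, which was lowest of its group for 7 of the 10, Lyz2 was at 373 CPM against a highest aged sham value of 162 CPM, while Csf1r, at 16.7 CPM, and Cd74, at 48.9 CPM, were below every aged sham library. In aged bleo 4, all but Gpnmb were above every aged sham library. In every aged bleo library but aged bleo 4, the number ending the label differs from aged sham and cannot be told apart from treatment. The labels do not say what this number means. Aged bleo 4 is the only aged bleo library whose label ends in the number 4, as all 4 aged sham labels do. With these 5 libraries alone, 8 of the 10 transcripts were called higher, against 18.0% of all tested genes, under the assumption that the lone aged bleo library, which was the highest for 9 of the 10, varies as aged sham does.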

How the data were processed

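The 9 RNA-Seq libraries (4 aged sham, 5 aged bleo) of sorted Col1a1-GFP lung fibroblasts were grouped by their titles. The authors deposited raw read counts and FPKM values of 43346 genes. Per the submitters' processing notes, STAR 2.5.2b, Subread, featureCounts, and bcl2fastq were used with mm10/GRCm38. Whether counting used strand is not given in the sources used here. In the deposited FPKM, counts are divided by gene length and by a library total that is 2.27 to 2.42 times their sum. No library pair of a group was a duplicate (chi-square per degree of freedom at least 26.5).

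Genes averaging 25 or more counts entered the test with edgeR 4.0.16 (quasi-likelihood, TMM, no covariate) in R 4.3.3, with an FDR under 0.10 (Benjamini-Hochberg) and a fold change over 1.5. SEs come from the fold change and its F statistic. Alternatives used DESeq2 1.42.0, limma 3.58.1 on log2 CPM (prior count 2) and on log2 of the deposited FPKM plus 0.1 or 1, other normalizations, filters, and thresholds, each library left out, and a replicate block. The tests were checked on simulated counts. The 10 genes and all gene lists were chosen with earlier results of these data known. All 10 genes are described, and of other lists up to 3 genes of highest mean FPKM, up to 3 of largest change, lists of up to 7 genes, or genes set beside a member. Adgre1, Cd163, Spi1, and the alveolar macrophage genes that were not called are named in addition. Limits from counts cover counting error only.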

Additional observations from a re-analysis of the deposited data

Results flagged for a closer look

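Chil3 in aged bleo 4 was at 179 CPM, and the next highest aged bleo library was at 84.5 CPM. The gap between them made up 0.771 of the range of the 5 aged bleo libraries, above Dixon's 95% critical value for 5 samples. Of 20 groups checked (10 transcripts in 2 groups), this was the only 1 past that value, 5.0% of them, and chance marks about 1 in 20. Without aged bleo 4, Chil3 was still higher in aged bleo, with a log2 fold change of 1.40 (edgeR, FDR = 0.00198).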

How the results depend on the processing

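Over 21 alternatives, 202 of the 210 values of the 10 transcripts kept their direction and their side of the thresholds, 7 gained a call, none lost one, and 1 turned its sign. This was Csf1r without aged bleo 4, at -0.11, while its values with any other library left out reached 0.67. The number of transcripts called was 5 to 7 with 1 library left out, 6 with DESeq2, and 8 with the libraries whose label ends in 4, in which the lone aged bleo library is assumed to vary as aged sham does. Over all genes, 3525 to 4597 were called with 1 library left out, 1785 on log2(FPKM + 1), 2158 at the stricter thresholds (FDR of 0.05, fold change of 2), and 6177 with the labels ending in 4, against 4022. Of the 5 other macrophage lists, 22 to 32 genes were called with 1 library left out. Genes with the same replicate number did not deviate together in each pair of libraries (r = 0.092, 0.062, -0.130, and 0.326 for numbers 1 to 4), so the numbers were not taken to pair the samples. With the replicate block, 3536 genes, 5 of the 10 transcripts, and 27 genes of the other lists were called. No aged sham library shares the number of aged bleo 5, so in that fit aged bleo 5 adds nothing to the fold change. Marco had the widest SE of the 10 (0.74) and the fewest counts, down to 13 in a library, and C1qa, with at least 357 counts in each library, had an SE of 0.68.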
